A study of Mus musculus with 16 samples.

Results

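The 8 genes Hdc, Cpa3, Ms4a2, Fcer1a, Mcpt8, Tpsb2, Tpsab1 and Cma1 encode proteins by which mast cells and basophils are known, and were chosen by name from 21755 protein-coding genes. Open chromatin near them was read from ATAC-Seq peak lists of 16 libraries of HoxB8-immortalized mouse fetal liver hematopoietic progenitors, which grew in expansion medium with β-estradiol, were infected with retrovirus for 3 days and were sorted for GFP. Progenitors with both copies of the Gata2 enhancer 77 kb upstream of the gene received empty vector (hi-77+/+ empty). Progenitors that lacked this enhancer on both alleles received empty vector (hi-77-/- empty), a vector for GATA2 (GATA2) or a vector for 9aa-Ins, a GATA2 variant with 9 extra amino acids between its zinc fingers (9aa-Ins). Each of the 4 groups had 4 libraries. All 3 enhancer-deleted groups carried the deletion, and the labels name no separate lines within a genotype, so that the deletion and a difference between 2 immortalized cell populations cannot be told apart. The labels do not say that libraries came from separate cultures, and the p-values measure the spread between these libraries only.

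Mast cells and basophils are granulocytes that bind IgE through the high affinity receptor FcεRI. When this receptor is cross-linked, they release histamine and proteases from granules, and also lipid mediators. Hdc makes histamine from histidine. Fcer1a and Ms4a2 encode the α and β chains of FcεRI, Cpa3 encodes mast cell carboxypeptidase A, Mcpt8 a basophil serine protease, Tpsb2 and Tpsab1 the mast cell tryptases, and Cma1 a mast cell chymase. GATA2 is a zinc finger transcription factor that binds GATA motifs in DNA and is required for the development of both cell types, and ATAC-Seq uses the transposase Tn5 to mark chromatin that is open to proteins.

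Peaks within 100 kb of the 5' end of each gene in the mm10 annotation were used, from the 49000 most significant peaks of each library. Overlapping peaks of the 16 libraries were merged into regions, of which 105 of 90549 lay near the 8 genes. The value of a region in a library was its rank score, the percentile of its best peak among the 49000, where 0 is no peak among the 49000 and 100 the most significant peak. Of the 105 regions, 90 had a peak in at least 2 libraries and were tested with limma among 71419 regions, with Benjamini-Hochberg adjusted p-values. A region is named here by the distance of its center from the gene's 5' end, upstream or downstream in the direction of transcription. Only 34 of the 105 regions had the 5' end of one of the 8 genes as their nearest, and none of the values ties a region to a gene. A rank score is relative to the other peaks of its library, and in a bulk library a smaller share of cells with a region open and less opening in each cell cannot be told apart.

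The lists held 49852 to 111743 peaks per library, and the number of reads behind them is unknown. The weakest peak taken from a list had a −log10 p of 5.351 to 7.433 in GATA2 libraries and 7.377 to 8.129 in hi-77-/- empty. It was 8.343 to 9.705 in hi-77+/+ empty and 8.751 to 11.7 with 9aa-Ins. A peak of the same −log10 p could thus score in a GATA2 library and be left out, as 0, in another group. How much of the group differences followed from this limit was not tested. All 6 progenitor markers (Kit, Cd34, Ptprc, Runx1, Spi1, Lyl1) had a peak within 1 kb of their 5' end in all 16 libraries, and none of 4 hepatocyte markers (Alb, Afp, Apoa1, Ttr) had one in any. Summed over 4 libraries and 6 neutrophil markers, peaks at the 5' end were present 11 times in hi-77+/+ empty, 15 in hi-77-/- empty, 13 with GATA2 and 23 with 9aa-Ins. The 4 eosinophil markers had 4, 4, 7 and 4 in the same order. The part of these marker differences in the results was not tested.

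Sequences are shown for 4 of the 5' flanks and for 5 distal regions, so that their GATA motifs can be read beside the scores. At the 5 distal regions GATA2 libraries scored above hi-77-/- empty. They were picked among regions that hold a GATA motif, so that its presence in them is no result. Regions called higher with GATA2 that held none around the summit, such as those 17.2 and 22.6 kb upstream of Ms4a2, are not shown. The distal regions of Ms4a2, Mcpt8 and Tpsab1 had the largest gain with GATA2 near their gene. Near Hdc, a region 76.1 kb upstream gained more than the distal region printed and is not shown. All were read from the RefSeq GRCm38.p6 (mm10) genome, minus strand, which is the strand of Hdc, Cpa3, Ms4a2, Mcpt8 and Tpsab1, and capitals mark GATA motifs (AGATAA or AGATAG, or TGATAA or TGATAG, on either strand) and, where one precedes a GATA motif, an E-box. The first set holds the 250 bases upstream of 4 gene 5' ends: Hdc chr2:126619300-126619549, Cpa3 chr3:20242182-20242431, Tpsab1 chr17:25345563-25345812 and Mcpt8 chr14:56085274-56085523, with 2, 1, 1 and 0 motifs. At Hdc the median peak summit lay 601 bases downstream of the 5' end, outside this flank. The 300 bases around that summit held 0 GATA motifs.
Hdc 5' flank: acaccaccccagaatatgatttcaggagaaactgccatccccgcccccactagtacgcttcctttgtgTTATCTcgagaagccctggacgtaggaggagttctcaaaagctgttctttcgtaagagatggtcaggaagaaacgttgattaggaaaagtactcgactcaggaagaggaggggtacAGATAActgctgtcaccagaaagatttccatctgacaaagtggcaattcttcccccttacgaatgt
Cpa3 5' flank: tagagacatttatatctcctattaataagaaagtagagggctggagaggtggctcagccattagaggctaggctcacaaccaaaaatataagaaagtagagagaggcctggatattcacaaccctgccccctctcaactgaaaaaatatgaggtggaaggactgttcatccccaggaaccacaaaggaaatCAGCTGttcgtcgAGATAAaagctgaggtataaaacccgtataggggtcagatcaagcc
Tpsab1 5' flank: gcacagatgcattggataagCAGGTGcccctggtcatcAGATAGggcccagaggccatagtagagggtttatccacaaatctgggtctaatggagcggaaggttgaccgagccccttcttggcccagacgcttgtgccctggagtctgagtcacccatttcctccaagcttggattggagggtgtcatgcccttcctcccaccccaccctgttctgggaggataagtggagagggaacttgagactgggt
Mcpt8 5' flank: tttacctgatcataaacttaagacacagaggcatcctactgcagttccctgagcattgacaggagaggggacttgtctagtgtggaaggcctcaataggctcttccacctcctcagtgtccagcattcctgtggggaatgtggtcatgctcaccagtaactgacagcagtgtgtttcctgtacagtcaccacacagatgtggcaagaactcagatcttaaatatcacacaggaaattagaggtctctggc

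The second set holds 200 bases around the median peak summit of 5 regions away from the 5' ends: Hdc chr2:126636015-126636214, Cpa3 chr3:20244023-20244222, Ms4a2 chr19:11634457-11634656, Mcpt8 chr14:56057881-56058080 and Tpsab1 chr17:25293599-25293798, with 1, 3, 1, 2 and 4 motifs. In the Cpa3 5' flank, the Cpa3 region 1.9 kb upstream and the Tpsab1 5' flank, an E-box (CANNTG) preceded a GATA motif by 7, 9 and 12 bases, within the spacing of 6 to 14 bases searched on both strands.
Hdc 16.8 kb upstream: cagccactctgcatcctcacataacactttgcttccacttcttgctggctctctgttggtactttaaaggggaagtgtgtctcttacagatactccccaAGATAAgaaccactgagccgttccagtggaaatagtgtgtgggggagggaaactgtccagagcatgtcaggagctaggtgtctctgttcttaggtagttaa
Cpa3 1.9 kb upstream: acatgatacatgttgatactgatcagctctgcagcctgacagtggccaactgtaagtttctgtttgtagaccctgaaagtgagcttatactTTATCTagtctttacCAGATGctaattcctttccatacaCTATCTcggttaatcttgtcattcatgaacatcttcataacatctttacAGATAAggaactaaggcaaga
Ms4a2 10.9 kb upstream: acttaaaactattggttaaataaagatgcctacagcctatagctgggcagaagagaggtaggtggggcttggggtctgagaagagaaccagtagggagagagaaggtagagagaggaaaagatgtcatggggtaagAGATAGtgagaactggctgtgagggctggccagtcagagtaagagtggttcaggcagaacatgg
Mcpt8 27.3 kb downstream: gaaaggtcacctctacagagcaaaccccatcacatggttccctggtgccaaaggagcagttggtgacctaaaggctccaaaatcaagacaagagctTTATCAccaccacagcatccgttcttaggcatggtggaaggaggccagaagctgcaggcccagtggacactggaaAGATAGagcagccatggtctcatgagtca
Tpsab1 51.9 kb downstream: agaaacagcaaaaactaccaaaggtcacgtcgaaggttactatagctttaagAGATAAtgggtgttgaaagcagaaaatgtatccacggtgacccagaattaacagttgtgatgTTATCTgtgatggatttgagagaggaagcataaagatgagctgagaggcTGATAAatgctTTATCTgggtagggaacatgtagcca

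The design asks which open regions the enhancer deletion changed, which of them GATA2 expression changed in deleted cells, and whether 9aa-Ins did the same. With GATA2, regions near Cpa3, Ms4a2, Hdc, Mcpt8 and the tryptase genes rose, several of them from a score of 0 in every hi-77-/- empty library. The 9aa-Ins values stand beside them. The deletion gave gains and losses, with the gains at Mcpt8 the highest. At Fcer1a no region was open in any library.

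After the deletion 15 of the 90 regions were higher and 9 lower than in hi-77+/+ empty, beside 15.5% higher and 14.6% lower among all 71419 regions. The study's methods name the MACS setting nomodel for ATAC-Seq peaks without naming groups. For the 3 hi-77-/- groups they also name a MACS2 call without local background. Which call gave the peak lists used here is not given in the sources used, and a part of the peak calling in the deletion comparisons was not tested. With GATA2 against hi-77-/- empty, 19 were higher and 3 lower, which is 21.11% and 3.333% of the 90, beside 6.63% and 9.35% of all regions. With 9aa-Ins against hi-77-/- empty, 6 were higher and 0 lower, beside 4.27% and 1.46%. At an unadjusted limma p under 0.05, 3 were lower with 9aa-Ins. With 9aa-Ins against GATA2, 8 were higher and 14 lower, beside 12.4% and 6.51%. The median score difference over the 90 regions was 4.29 with GATA2 and -2.85 with 9aa-Ins against GATA2, and 0 over all regions in each. It was 0 for the other 2 comparisons, in the 90 and in all. Of the 90, 15 had peaks in GATA2 libraries only and were tested because of them, as were 2669 of the 71419. Such regions could only be higher with GATA2 and lower with 9aa-Ins than with GATA2, and they enter these counts and medians. The comparisons of the deletion, GATA2 and 9aa-Ins share the hi-77-/- empty libraries, and those of GATA2 and 9aa-Ins are given side by side for that reason.

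Counted as opened or closed where a peak among the 49000 was present in 4 of 4 libraries of one group and 0 of 4 of the other, 4 of the 105 regions opened and 2 closed with the deletion, beside 3.59% and 2.11% of all 90549 regions. With GATA2, 9 opened (8.571%) and 0 closed, beside 1.73% and 2.23%. With 9aa-Ins, 4 opened and 0 closed, beside 1.35% and 0.171%, and against GATA2 0 opened and 6 closed, beside 2.97% and 1.47%. Peaks among the 49000 in at least 2 GATA2 libraries and in no other library were found at 15 of the 105 regions (14.29%), against 2.948% of all regions. At 6 of these the peak was in all 4 GATA2 libraries (5.714% of the 105), against 0.7974% of all regions. The same pattern for 9aa-Ins held at 1 region, where all regions gave 2.116%. By contrast, 19 regions (18.1%) had a peak in all 16 libraries, against 23.38% of all regions.

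**Figure D1:**
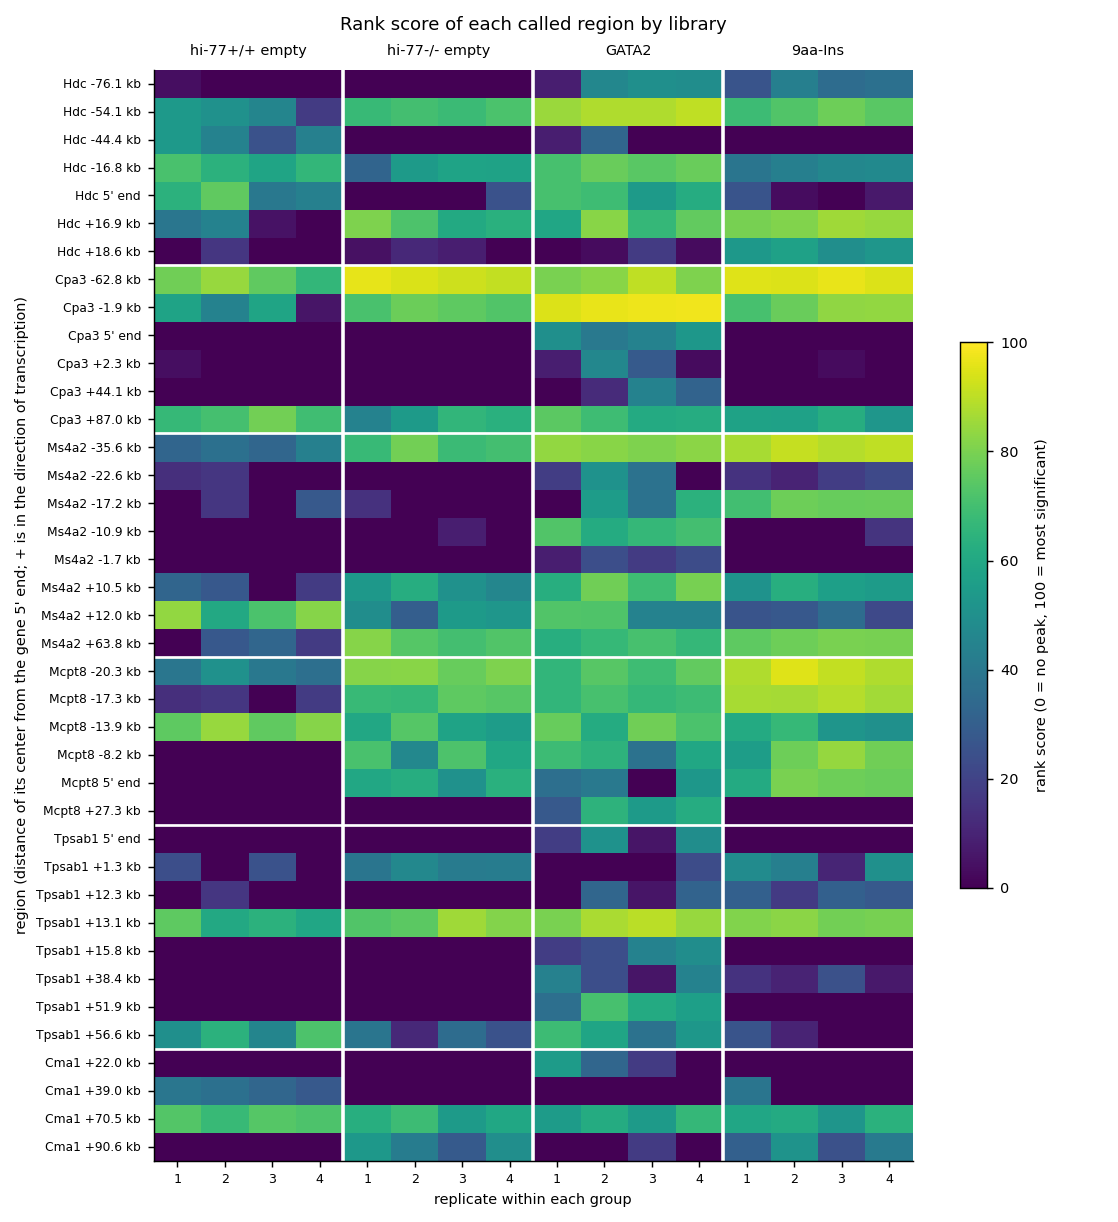
Rank score (color, 0 = no peak among the 49000 to 100 = most significant) of 39 regions that limma called in at least 1 comparison (rows, named by gene and distance in kb) in the 16 libraries (columns, 4 per group). Dark cells in 3 groups beside lighter cells under GATA2 mark regions that scored with GATA2 only, such as the Cpa3 5' end, where the 4 GATA2 libraries scored 40.5 to 53 and the other 12 scored 0.

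The heat map of 39 called regions shows both kinds of pattern: rows that are dark outside GATA2, near Cpa3, Ms4a2, Mcpt8 and Tpsab1, and rows with scores in every library that shift between groups, such as the region 62.8 kb upstream of Cpa3.

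Hdc (ENSMUSG00000027360.5, chr2:126593667-126619299, minus strand) had 26 regions in its window, 20 of them tested and 5 present in all 16 libraries. Its 5' end scored high in hi-77+/+ empty and GATA2 libraries and low or 0 in the others. The region over the start site (chr2:126618543-126619502) scored 64.3, 75.5, 39.9 and 43.6 in hi-77+/+ empty, 0, 0, 0 and 25.1 in hi-77-/- empty, 70.9, 69, 54.4 and 62 with GATA2 and 26.1, 3.2, 0 and 6.8 with 9aa-Ins. The 2 higher groups did not overlap with the 2 lower groups, and in the full lists the region had a peak in all 16 libraries. After the deletion it fell by 49.5 ± 8.45 (SE), limma adjusted p = 0.000504. It was higher with GATA2 (difference 57.8 ± 8.45 (SE), limma adjusted p = 0.000207) and lower with 9aa-Ins than with GATA2 (-55 ± 8.45 (SE), limma adjusted p = 0.000298). With all deposited peaks ranked, the last difference was -23.3 and missed the threshold (adjusted p = 0.0711). With the 24500 top peaks all 3 calls were lost, with a difference of -19.9 for the deletion (adjusted p = 0.121), 28.1 for GATA2 (adjusted p = 0.0579) and -28.1 for 9aa-Ins against GATA2 (adjusted p = 0.0527). The 9aa-Ins and hi-77-/- empty libraries overlapped (difference 2.76 ± 8.45 (SE), limma adjusted p = 1).

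A region 16.8 kb upstream of Hdc, in an intron of Gabpb1 (chr2:126635901-126636309), split the groups in a similar way but was open in every library. Its scores were 71.4, 64.1, 58.4 and 66.1 in hi-77+/+ empty, 32.4, 54.3, 57.9 and 57.5 in hi-77-/- empty, 70.9, 77.1, 74.3 and 77.3 with GATA2 and 38.8, 43, 46.4 and 47.4 with 9aa-Ins. It was higher with GATA2 (difference 24.4 ± 4.9 (SE), limma adjusted p = 0.0028) and lower with 9aa-Ins than with GATA2 (-31 ± 4.9 (SE), limma adjusted p = 0.000382), and the GATA2 libraries lay above all hi-77-/- empty and 9aa-Ins libraries. The call for the deletion (-14.5 ± 4.9 (SE), limma adjusted p = 0.0377) was lost with only the 8 libraries of the 2 groups (adjusted p = 0.13) and without hi-77+/+ empty replicate 1, 2 or 4, or hi-77-/- empty replicate 1; without the last, which scored 32.4, the difference was -8.45. Another region in the Gabpb1 intron, 44.4 kb upstream, scored 54.2, 44.2, 25.2 and 43.6 in hi-77+/+ empty and 0 in all 4 hi-77-/- empty libraries (difference -41.8 ± 6.7 (SE), limma adjusted p = 0.0003). With GATA2 it scored 8.5, 33.2, 0 and 0, and with 9aa-Ins 0 in all 4. In the full lists it had a peak in 4, 1, 3 and 2 of 4 libraries of hi-77+/+ empty, hi-77-/- empty, GATA2 and 9aa-Ins.

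The remaining Hdc regions with called differences did not follow this order. Inside the gene, 16.9 kb downstream, the score was 39.4, 44.2, 4.8 and 0 in hi-77+/+ empty and 80.5, 72, 60.8 and 63.6 in hi-77-/- empty (difference 47.1 ± 8.95 (SE), limma adjusted p = 0.00117), and the groups did not overlap. At 18.6 kb downstream the 9aa-Ins libraries alone were high, with 53.3, 57.4, 49.3 and 52.6 against 4.3, 11.5, 8.5 and 0 in hi-77-/- empty and 0, 2.8, 17.3 and 3 with GATA2 (9aa-Ins against hi-77-/- empty 47.1 ± 4.43 (SE), limma adjusted p = 1.13e-05). A region between genes 76.1 kb upstream scored 0 in all 4 in hi-77-/- empty, 8.5, 46.3, 49.8 and 49 with GATA2 and 26.1, 43, 35.3 and 37.1 with 9aa-Ins. It was higher with GATA2 (38.4 ± 7.15 (SE), limma adjusted p = 0.00156) and with 9aa-Ins (35.4 ± 7.15 (SE), limma adjusted p = 0.00752). Ranking all deposited peaks, the calls at 16.9 kb downstream and at 16.8 kb upstream with GATA2 and against GATA2 were also lost. Those at 18.6 kb downstream and 76.1 kb upstream were lost with the 24500 top peaks. The highest mean score of the window was at the Usp8 start site, 88.0 kb upstream, where all 16 libraries scored 86.1 to 94.8.

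**Figure D2:**
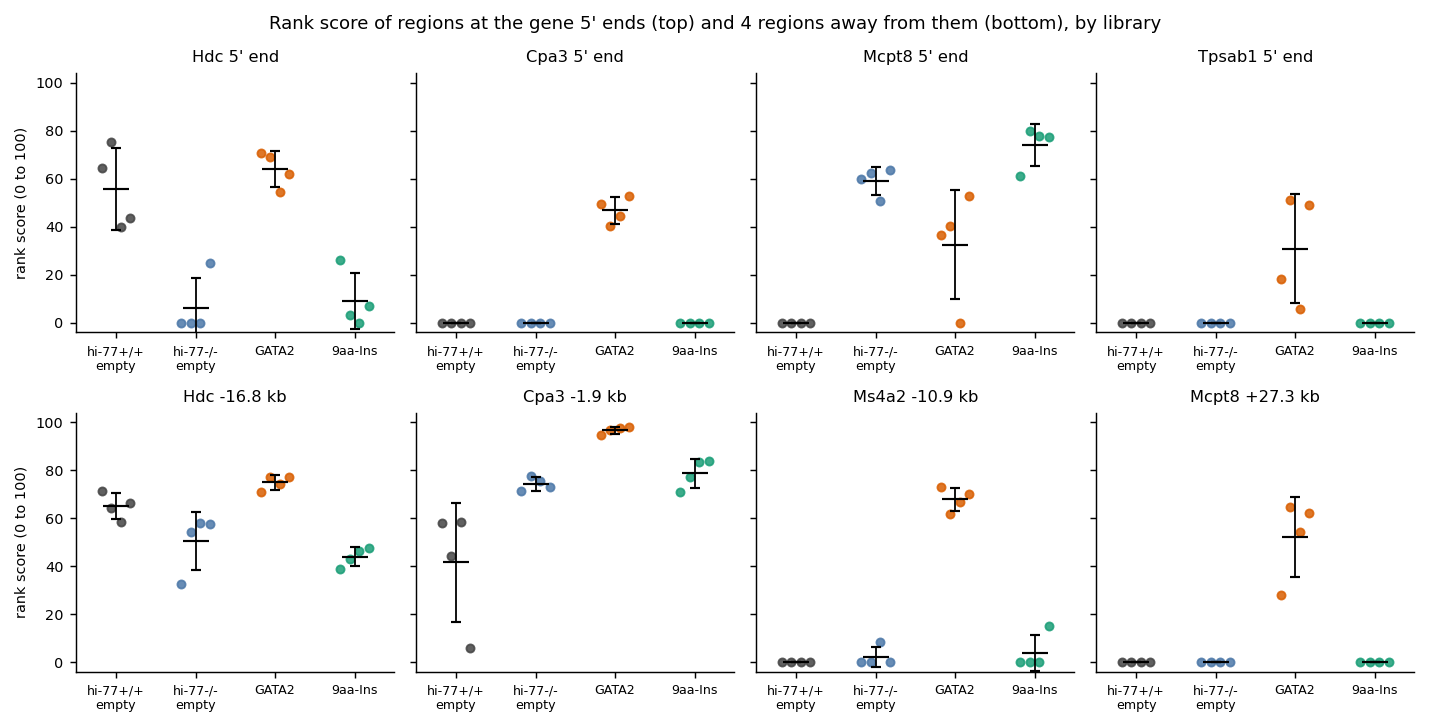
Rank score (0 to 100) of 8 regions in each library (points), with the group mean (bar) and SD (whiskers, n = 4). The top row shows the regions at the 5' ends of Hdc, Cpa3, Mcpt8 and Tpsab1, and the bottom row regions 16.8 kb upstream of Hdc, 1.9 kb upstream of Cpa3, 10.9 kb upstream of Ms4a2 and 27.3 kb downstream of Mcpt8. The Cpa3 5' end scored 0 outside GATA2, whereas the Mcpt8 5' end was highest with 9aa-Ins, at 61 to 80.

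The dot plots of single regions set Hdc, Cpa3, Ms4a2 and Tpsab1, with the GATA2 libraries high, beside the Mcpt8 5' end, where hi-77-/- empty and 9aa-Ins libraries scored above GATA2 on average.

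The 2 receptor chains differed in how much open chromatin lay near them. Fcer1a (ENSMUSG00000005339.10, chr1:173221284-173227214, minus strand) had no peak within 100 kb in any of the 16 full lists, and the nearest peak lay between 112.4 and 138.7 kb away across libraries. Among the 21755 genes, 787 had none in the same way, and no comparison was possible. Its window holds olfactory receptor genes and Mptx2. Ms4a2 (ENSMUSG00000024680.12, chr19:11615523-11623719, minus strand) had 15 regions, all tested, and none within 1 kb of its 5' end. A region 10.9 kb upstream, in an intron of Ms4a3 (chr19:11634402-11634772), scored 73, 61.7, 66.6 and 70.2 with GATA2, 0 in all 4 libraries of hi-77+/+ empty, 0, 0, 8.5 and 0 in hi-77-/- empty and 0, 0, 0 and 15 with 9aa-Ins. The GATA2 libraries lay above all others. It was higher with GATA2 (difference 65.8 ± 3.57 (SE), limma adjusted p = 1.17e-08) and lower with 9aa-Ins than with GATA2 (-64.1 ± 3.57 (SE), limma adjusted p = 1.52e-08). In the full lists it had a peak in 4, 1, 4 and 4 of 4 libraries of hi-77+/+ empty, hi-77-/- empty, GATA2 and 9aa-Ins, so that its presence in the full lists did not separate GATA2 from hi-77+/+ empty or 9aa-Ins.

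At the start site of Ms4a3, a neighbor expressed in myeloid progenitors, 17.2 kb upstream of Ms4a2 (chr19:11640621-11641148), the highest scores were those of 9aa-Ins, with 69.7, 78.1, 76.8 and 77.3. The other groups scored 0, 16, 0 and 28 in hi-77+/+ empty, 14.3, 0, 0 and 0 in hi-77-/- empty and 0, 55.1, 37.5 and 64.4 with GATA2. The 9aa-Ins libraries lay above all others (against hi-77-/- empty 71.9 ± 10.8 (SE), limma adjusted p = 0.000794; against GATA2 36.2 ± 10.8 (SE), limma adjusted p = 0.0301). The difference of GATA2 from hi-77-/- empty (35.7 ± 10.8 (SE), limma adjusted p = 0.0372) was lost without hi-77-/- empty replicate 2, 3 or 4, or GATA2 replicate 2, 3 or 4, and with the 8 libraries of the 2 groups (adjusted p = 0.136), as was that of 9aa-Ins from GATA2 (0.102), which was 23.1 without GATA2 replicate 1 and lost without GATA2 replicate 3, or 9aa-Ins replicate 2, 3 or 4. A region between genes 22.6 kb upstream scored 18.1, 51.1, 37.5 and 0 with GATA2 and 0 in all 4 in hi-77-/- empty, and that difference (26.7 ± 8.2 (SE), limma adjusted p = 0.0394) was lost without any 1 hi-77-/- empty library, or GATA2 replicate 2 or 3, or 9aa-Ins replicate 1 or 3.

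The region with the highest mean score near Ms4a2, in an Oosp2 intron 35.6 kb upstream (chr19:11659091-11659558), had a separate range of scores in each group. It scored 32.6, 36.8, 33.2 and 43.6 in hi-77+/+ empty, 67.2, 78.9, 68.1 and 70.1 in hi-77-/- empty, 83.9, 82.2, 80.8 and 82.6 with GATA2 and 86.8, 91.4, 88.8 and 90.6 with 9aa-Ins. The 4 groups did not overlap. The differences were 34.5 ± 2.92 (SE), limma adjusted p = 7.96e-07 for the deletion, 11.3 ± 2.92 (SE), limma adjusted p = 0.0154 for GATA2 and 18.3 ± 2.92 (SE), limma adjusted p = 0.00126 for 9aa-Ins, each against the groups named above, and 7.01 ± 2.92 (SE), limma adjusted p = 0.123 for 9aa-Ins against GATA2. Regions 63.8 and 10.5 kb downstream were also higher after the deletion, by 55 ± 5.44 (SE), limma adjusted p = 3.7e-06 and 33.6 ± 6.29 (SE), limma adjusted p = 0.00105. At 12 kb downstream the score was lower after the deletion (-27.95 ± 7.85 (SE), limma adjusted p = 0.0148). It was 83.9, 60.2, 71.7 and 82 in hi-77+/+ empty and 49.2, 29.9, 54.5 and 52.4 in hi-77-/- empty. There the score was also lower with 9aa-Ins (26.1, 27.7, 35.3 and 21.9) than with GATA2 (73, 72.6, 44.3 and 44.4; difference -30.8 ± 7.85 (SE), limma adjusted p = 0.0124). On chromosome 19 the median score of all peaks was 58.9 in hi-77+/+ empty and 53.51 in hi-77-/- empty, and when peaks were ranked within each chromosome these regions kept their calls. With all deposited peaks ranked, the calls for GATA2 at 35.6 and 17.2 kb upstream and for the deletion at 10.5 kb downstream were lost. So were those for 9aa-Ins against GATA2 at 12 kb downstream and 17.2 kb upstream. With the 24500 top peaks, those for the deletion at 10.5 kb downstream, for 9aa-Ins against GATA2 at 12 kb downstream and for GATA2 at 17.2 kb upstream were lost.

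Cpa3 (ENSMUSG00000001865.2, chr3:20215620-20242181, minus strand) had the clearest difference at a start site. Its 13 regions included 10 tested and 3 present in all 16 libraries. The region over the 5' end (chr3:20242012-20242404) scored 49.7, 40.5, 44.3 and 53 with GATA2 and 0 in all 12 other libraries. It was higher with GATA2 (difference 46.9 ± 2.33 (SE), limma adjusted p = 4.57e-09) and lower with 9aa-Ins than with GATA2 (-46.9 ± 2.33 (SE), limma adjusted p = 4.76e-09). Because 3 groups had no spread, the fit with the 8 libraries of the 2 groups is also given: its adjusted p was 4.73e-05 in each comparison. In the full lists this region had a peak in 1, 1, 4 and 2 of 4 libraries of hi-77+/+ empty, hi-77-/- empty, GATA2 and 9aa-Ins. Its scores lay between 40.5 and 53, and it passed no threshold with the 24500 top peaks of each list.

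A region 1.9 kb upstream of Cpa3 (chr3:20243601-20244470) was open in all 16 libraries. It scored 58, 44.2, 58.4 and 5.7 in hi-77+/+ empty, 71.2, 77.7, 75.3 and 72.8 in hi-77-/- empty, 94.6, 96.7, 97.4 and 97.9 with GATA2 and 70.9, 77.1, 83.4 and 83.7 with 9aa-Ins, so that the GATA2 libraries lay above all others. The deletion difference (32.6 ± 8.61 (SE), limma adjusted p = 0.0105) missed the threshold with 8 libraries (adjusted p = 0.0707). The difference of GATA2 from hi-77-/- empty (22.4 ± 8.61 (SE), limma adjusted p = 0.105) missed it in the fit of all 16 and passed it with 8 (adjusted p = 0.000451; exact permutation p = 0.0286, two-sided and unadjusted, the smallest possible). Without hi-77+/+ empty replicate 4, which scored 5.7, it also passed. The region with the highest mean score, 62.8 kb upstream (chr3:20304472-20305473), scored 78.5, 84.4, 75.6 and 66.1 in hi-77+/+ empty and 96.2, 94.4, 92.5 and 90.8 in hi-77-/- empty (17.3 ± 3.4 (SE), limma adjusted p = 0.0015). With GATA2 it scored 79.9, 82.2, 90.4 and 80.6 and with 9aa-Ins 95, 94.6, 96.5 and 94.8. The 9aa-Ins libraries were higher (11.9 ± 3.4 (SE), limma adjusted p = 0.0234), a call lost without GATA2 replicate 1, 2 or 4, or 9aa-Ins replicate 3. Both deletion calls were lost when all deposited peaks were ranked.

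Regions with lower scores were called higher with GATA2 inside and beyond Cpa3. At 2.3 kb downstream the GATA2 libraries scored 8.5, 46.3, 28.5 and 3, and at 44.1 kb downstream 0, 12.3, 44.3 and 31.9. The other groups held no score above 3.9 at either. In the full lists the first had a peak in 2, 0, 4 and 4 libraries of hi-77+/+ empty, hi-77-/- empty, GATA2 and 9aa-Ins. The second had a peak in 1, 0, 3 and 0. The differences from hi-77-/- empty were 21.6 ± 6.73 (SE), limma adjusted p = 0.0421 and 22.1 ± 6.68 (SE), limma adjusted p = 0.0359; with 8 libraries both calls were lost (adjusted p = 0.182 and 0.172). The first was lost in every fit without 1 library except those without GATA2 replicate 1 or 4 (13.4 without GATA2 replicate 2), and the second without any 1 hi-77-/- empty library, or GATA2 replicate 3 or 4 (14.7 without GATA2 replicate 3). The Gyg start site, 87.0 kb downstream, was lower after the deletion (-14.3 ± 4.65 (SE), limma adjusted p = 0.0319), a call lost without hi-77+/+ empty replicate 2 or 3, or hi-77-/- empty replicate 1 or 2, and 3.87 with peaks narrower than 1 kb.

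Mcpt8 (ENSMUSG00000022157.8, chr14:56082166-56085273, minus strand) had a higher score at its 5' end after the deletion. All 9 of its regions were tested. The region over the 5' end (chr14:56085011-56085540) scored 0 in all 4 hi-77+/+ empty libraries, 59.9, 62.4, 50.7 and 63.6 in hi-77-/- empty, 36.7, 40.5, 0 and 53 with GATA2 and 61, 80, 77.8 and 77.3 with 9aa-Ins. It was higher after the deletion (difference 59.1 ± 8.4 (SE), limma adjusted p = 0.000108), and higher with 9aa-Ins than with GATA2 (41.5 ± 8.4 (SE), limma adjusted p = 0.00268), and in both pairs the groups did not overlap. The decrease with GATA2 (-26.6 ± 8.4 (SE), limma adjusted p = 0.0453) rested on replicate 3, which scored 0: it was -15.7 without it, and the call was lost in every fit without 1 library except those without hi-77-/- empty replicate 3, or GATA2 replicate 2 or 4, or 9aa-Ins replicate 1, with 8 libraries (adjusted p = 0.166) and with all deposited peaks ranked. In the full lists the region had a peak in 3 of 4 hi-77+/+ empty libraries, below the 49000 most significant. With the 24500 top peaks the deletion difference was 17.9 and missed the threshold (adjusted p = 0.0682).

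The gain after the deletion extended upstream of Mcpt8. At 8.2 kb upstream all 4 hi-77+/+ empty libraries scored 0 and hi-77-/- empty scored 71.2, 46.8, 72 and 59.6 (62.4 ± 7.46 (SE), limma adjusted p = 2.27e-05), with 68.5, 64.5, 37.5 and 59.4 in GATA2 and 55.5, 78.1, 84.3 and 78.4 in 9aa-Ins libraries. With the 24500 top peaks this difference was 26.4 and missed the threshold (adjusted p = 0.104), and in the full lists the region had a peak in all 16 libraries. At the start site of Ctsg, which encodes the granule protease cathepsin G, 17.3 kb upstream, the scores were 13.6, 16, 0 and 17.4 in hi-77+/+ empty and 67.2, 66.5, 75.3 and 74 in hi-77-/- empty (59 ± 3.46 (SE), limma adjusted p = 1.87e-08). There 9aa-Ins scored 86.8, 86.7, 88.8 and 86.1, above hi-77-/- empty (16.3 ± 3.46 (SE), limma adjusted p = 0.0103; lost with all deposited peaks) and above GATA2 at 65.8, 70.9, 66.6 and 68.4 (19.1 ± 3.46 (SE), limma adjusted p = 0.00111). The highest region, 20.3 kb upstream, scored 39.4, 50.4, 39.9 and 36.5 in hi-77+/+ empty, 81.7, 82.4, 76.8 and 80.6 in hi-77-/- empty, 65.8, 74.2, 68.8 and 76 with GATA2 and 88.2, 95.1, 90.7 and 88.1 with 9aa-Ins, with a deletion difference of 38.8 ± 3.22 (SE), limma adjusted p = 6.45e-07. All 3 regions were thus higher in every deleted library than in any hi-77+/+ empty library. Among them, 13.9 kb upstream, lay a region that was lower after the deletion and was chosen after its values were seen: it scored 75.2, 84.4, 75.6 and 82 in hi-77+/+ empty, 59.9, 73.5, 57.9 and 55.1 in hi-77-/- empty, 76.7, 61.7, 78.4 and 71.8 with GATA2 and 61, 66.8, 52 and 50.1 with 9aa-Ins (deletion difference -17.7 ± 4.94 (SE), limma adjusted p = 0.0142). At 27.3 kb downstream (chr14:56057815-56058190), between genes, GATA2 libraries scored 28.1, 64.5, 54.4 and 62 and the other 12 scored 0 (GATA2 against hi-77-/- empty 52.2 ± 5.68 (SE), limma adjusted p = 1.32e-05), also in the full lists, where it had a peak in the 4 GATA2 libraries and no other. With the 8 libraries of the 2 groups the limma adjusted p was 0.00339.

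**Figure D3:**
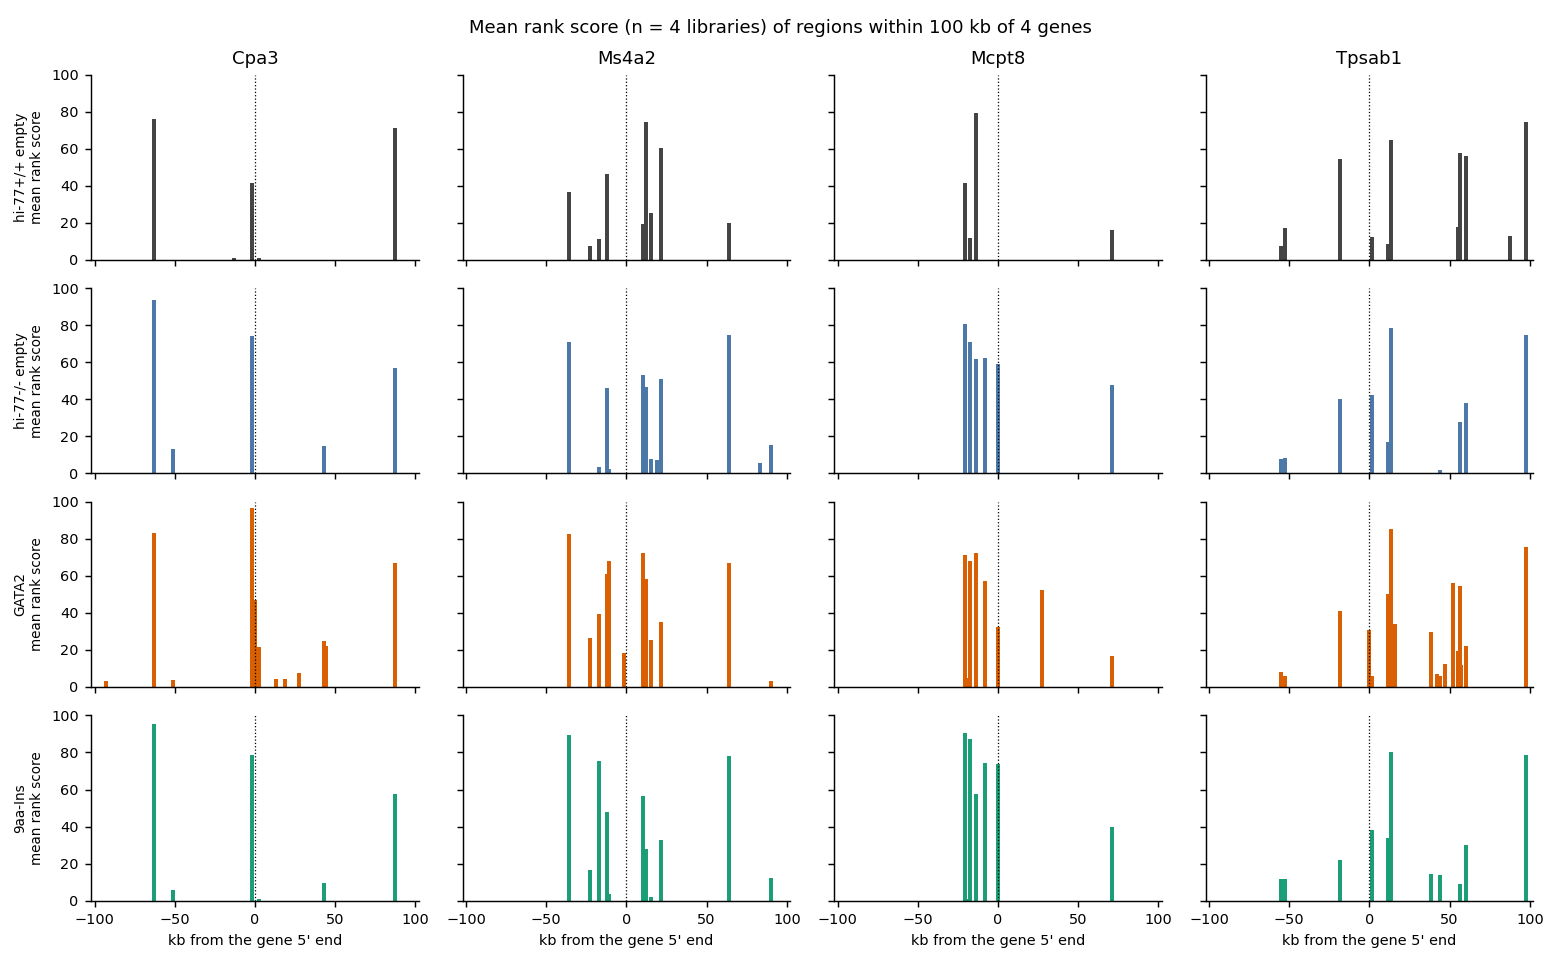
Mean rank score (bars, n = 4 libraries) of regions within 100 kb of the 5' end (dotted line) of Cpa3, Ms4a2, Mcpt8 and Tpsab1 (columns) in the 4 groups (rows), by distance in kb, negative upstream. A bar appears at the Cpa3 5' end and 27.3 kb downstream of Mcpt8 in the GATA2 row only, and bars at the Mcpt8 5' end in every row but hi-77+/+ empty.

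The maps of the 4 loci show bars that recur in every group, such as those 1.9 and 62.8 kb upstream of Cpa3. Beside them stand bars that are missing from some of the groups.

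Tpsb2 (ENSMUSG00000033825.10, chr17:25366305-25369098, plus strand) and Tpsab1 (ENSMUSG00000024173.11, chr17:25343245-25345562, minus strand) have 5' ends 20.74 kb apart and shared 20 regions, of 21 and 23, so that their windows are close to a single measurement. They are paralogs, and the study's methods kept only reads with a unique match to the genome, so that a read matching both was not used. No region lay within 1 kb of the Tpsb2 5' end. At the Tpsab1 5' end (chr17:25345450-25345890) GATA2 libraries scored 18.1, 51.1, 5.6 and 49 and the other 12 scored 0. The difference from hi-77-/- empty was 31 ± 7.61 (SE), limma adjusted p = 0.0114, and with 8 libraries the adjusted p was 0.0995. A region 51.9 kb downstream of Tpsab1 (chr17:25293414-25293871) scored 36.7, 70.9, 61.3 and 56.4 with GATA2 and 0 elsewhere (56.3 ± 4.96 (SE), limma adjusted p = 1.71e-06), and 1 at 15.8 kb downstream scored 18.1, 24.1, 44.3 and 49 and 0 elsewhere (33.9 ± 5.17 (SE), limma adjusted p = 0.0003). Each was lower by the same amount with 9aa-Ins than with GATA2, since the hi-77-/- empty and 9aa-Ins libraries all scored 0. With 8 libraries the limma adjusted p for GATA2 was 0.00119 at 51.9 kb and 0.016 at 15.8 kb downstream. In the full lists 1 of 4 hi-77-/- empty libraries had a peak at the former, and 2 of 4 9aa-Ins libraries at the latter.

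Other tryptase regions differed after the deletion or with 9aa-Ins. At 56.6 kb downstream of Tpsab1 the scores were 49.9, 64.1, 45.6 and 71.9 in hi-77+/+ empty, 39, 11.5, 35.5 and 25.1 in hi-77-/- empty, 68.5, 58.6, 37.5 and 53 with GATA2 and 26.1, 10.1, 0 and 0 with 9aa-Ins. This was lower after the deletion (-30.1 ± 8.36 (SE), limma adjusted p = 0.014) and lower with 9aa-Ins than with GATA2 (-45.3 ± 8.36 (SE), limma adjusted p = 0.00131). The increase with GATA2 (26.6 ± 8.36 (SE), limma adjusted p = 0.0439) was lost in every fit without 1 library except those without hi-77+/+ empty replicate 3 or 4, or hi-77-/- empty replicate 1, or GATA2 replicate 3, or 9aa-Ins replicate 1, and the groups overlapped. A region 1.3 kb downstream, over the Tpsab1 UTR, went the opposite way, with 39, 46.8, 41.5 and 41.8 in hi-77-/- empty, 0, 0, 0 and 23.2 with GATA2 (-36.5 ± 8.81 (SE), limma adjusted p = 0.0101) and 48.3, 43, 10.4 and 50.1 with 9aa-Ins. At 12.3 kb downstream the 9aa-Ins libraries scored 30.8, 16.8, 30.5 and 27.9 and hi-77-/- empty 0 (26.5 ± 6.82 (SE), limma adjusted p = 0.0338), a call lost without any 1 hi-77-/- empty library, or 9aa-Ins replicate 1, 3 or 4, and with the replicate number as a block. With all deposited peaks ranked, the calls at 56.6 kb downstream, at 1.3 kb downstream for the deletion and GATA2, and at the 5' end for GATA2 were lost. All 3 calls at 56.6 kb downstream were lost with the 24500 top peaks.

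Cma1 (ENSMUSG00000022225.7, chr14:55941451-55944675, minus strand) had 19 regions, 16 tested, and none within 1 kb of its 5' end; it shares 1 region with Mcpt8, 140.6 kb away. Of the 4 regions described next, 3 lay nearest to the 5' end of another gene. At the Nynrin start site, 90.6 kb downstream, scores were 0 in all 4 hi-77+/+ empty libraries, 53.2, 42, 28.3 and 49.3 in hi-77-/- empty, 0, 0, 17.3 and 0 with GATA2 and 30.8, 51.2, 24.9 and 40.9 with 9aa-Ins. It was higher after the deletion (43.2 ± 6.14 (SE), limma adjusted p = 0.000108), lower with GATA2 (-38.9 ± 6.14 (SE), limma adjusted p = 0.000402) and higher with 9aa-Ins than with GATA2 (32.6 ± 6.14 (SE), limma adjusted p = 0.00155), and none of these pairs overlapped. All 3 calls were lost with the 24500 top peaks. A region 39.0 kb downstream scored 39.4, 36.8, 33.2 and 28 in hi-77+/+ empty and 0 in hi-77-/- empty (-34.4 ± 6.76 (SE), limma adjusted p = 0.00151). At 22 kb downstream GATA2 libraries scored 54.8, 33.2, 17.3 and 0 and all others 0 (26.3 ± 7.82 (SE), limma adjusted p = 0.0333; with 8 libraries adjusted p = 0.166), a call lost without any 1 hi-77-/- empty library, or GATA2 replicate 2 (16.8 without GATA2 replicate 1). The Nynrin UTR, 70.5 kb downstream, was lower after the deletion (-10.3 ± 3.63 (SE), limma adjusted p = 0.0449), a call lost in every fit without 1 library except those without hi-77+/+ empty replicate 2, or hi-77-/- empty replicate 2, or GATA2 replicate 1, 3 or 4, or 9aa-Ins replicate 3 or 4 and with all deposited peaks. The highest region, at the Cbln3 and Khnyn start sites, scored 90.2 to 97.4 throughout.

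The number of peaks near each gene was compared as a coarser measure. Fcer1a, at 0, was not tested, and 7 of the 8 genes entered a limma fit of log2(peaks + 1) over 18154 genes. With GATA2, 3 of the 7 changed, all upward, beside 9.94% of all genes. Cpa3 had 4, 5, 5 and 5 peaks in hi-77-/- empty and 6, 10, 12 and 9 with GATA2 (log2 difference 0.80, limma adjusted p = 0.0117). Tpsb2 had 9, 6, 7 and 10 and 11, 15, 14 and 18 (log2 difference 0.79, limma adjusted p = 0.00677). Tpsab1, which shares most of them, had 10, 8, 9 and 12 and 12, 16, 16 and 18 (log2 difference 0.62, limma adjusted p = 0.00921). None of the 3 passed the threshold with all deposited peaks, with the 24500 top peaks, with only those peaks whose −log10 q reached 5 or with 8 libraries.

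After the deletion 1 of the 7 changed, beside 26.2% of all genes. Mcpt8 had 3, 4, 3 and 3 peaks in hi-77+/+ empty and 6 in every hi-77-/- empty library (log2 difference 0.73, limma adjusted p = 0.000246). In the full lists the difference turned to -0.13 (adjusted p = 0.517). With 9aa-Ins 0 of the 7 passed the threshold in limma (1 at an unadjusted p under 0.05), beside 0.595% of all genes. Against GATA2, 2 did, beside 12.1%: Cpa3, with 4, 5, 5 and 4 peaks in 9aa-Ins libraries, had a log2 difference -0.87, limma adjusted p = 0.00733. Tpsab1, with 13, 11, 10 and 11, had a log2 difference -0.42, limma adjusted p = 0.0467, a call lost in every fit without 1 library except those without hi-77+/+ empty replicate 4, or hi-77-/- empty replicate 2 or 4, or GATA2 replicate 1, or 9aa-Ins replicate 1 and with 8 libraries. Both calls were lost with all deposited peaks. Over the 7 genes the median log2 difference was 0.17 (deletion), 0.33 (GATA2), 0.14 (9aa-Ins) and -0.22 (9aa-Ins against GATA2), beside -0.06, 0.02, -0.01 and -0.03 over all genes tested. Hdc, Ms4a2 and Cma1 passed in no comparison: over all libraries they had 10 to 17, 6 to 12 and 7 to 14 peaks.

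**Figure D4:**
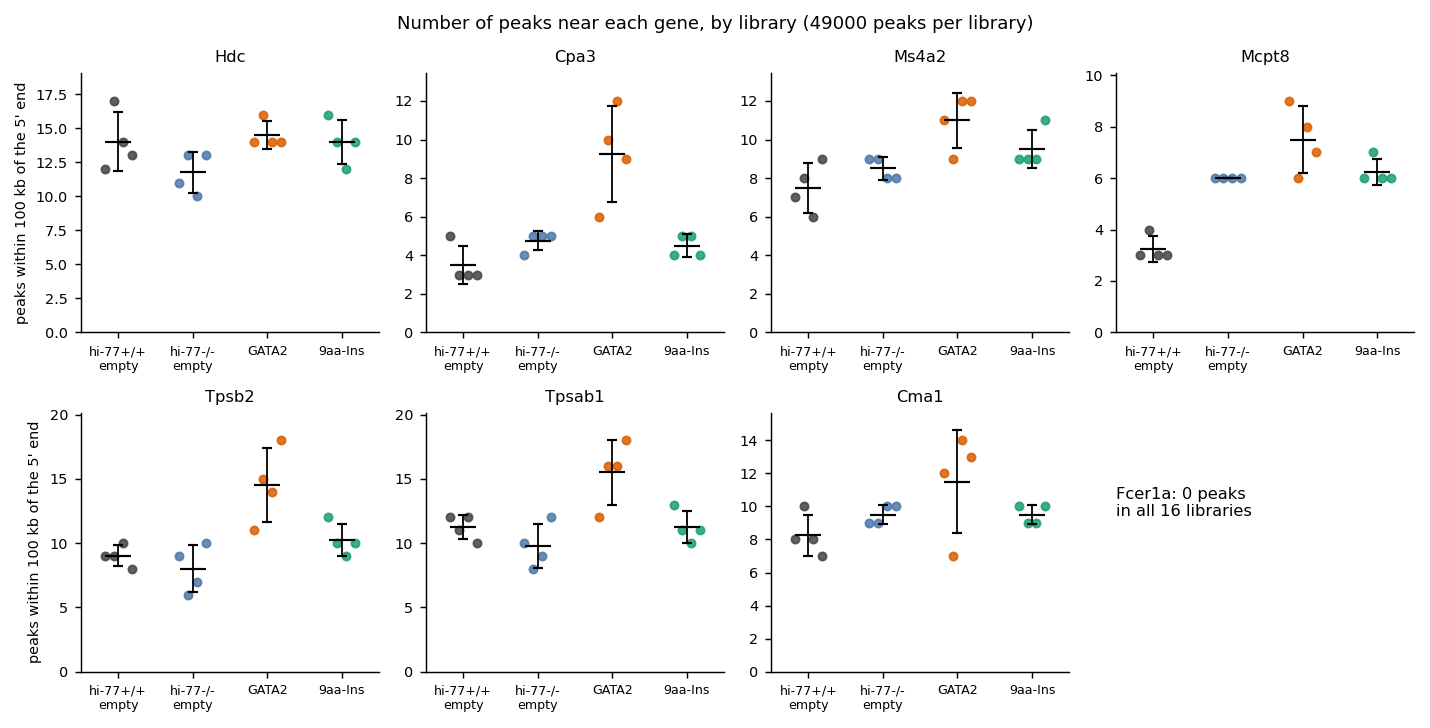
Number of the 49000 peaks within 100 kb of the 5' end of 7 genes in each library (points), with the group mean (bar) and SD (whiskers, n = 4). GATA2 libraries had 6 to 12 peaks near Cpa3 where hi-77-/- empty libraries had 4 to 5, and Mcpt8 had 3 to 4 in hi-77+/+ empty and 6 in each hi-77-/- empty library.

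The plots of peak numbers also show the spread within groups, which for the GATA2 libraries near Cma1 ran from 7 to 14 peaks.

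GATA motifs were counted in the 300 bases around the median summit of each region. Of the 90 tested regions 44.4% held at least 1, against 35.1% of all tested regions. Of the 19 that were higher with GATA2, 14 did (73.7%), beside 72.1% of all regions higher with GATA2, and of the 14 that were lower with 9aa-Ins than with GATA2, 11 did (78.6%), beside 69.9%. The 3 regions lower with GATA2, which include the Mcpt8 5' end, held none, and of the 8 higher with 9aa-Ins than with GATA2, 1 did (12.5%), beside 25% of all such regions. For regions higher after the deletion the shares were 33.3% and 32.8%. The E-box and GATA composite was found in 5 of the 19 regions higher with GATA2 (26.3%), beside 8.03% of all regions higher with GATA2 and 2.79% of all regions. Whatever the call, 7.78% of the 90 tested regions held it, against 2.64% of all tested regions. Upstream of the 5' ends, RefSeq promoters, given for 6 of the 8 genes, held 1 motif at Hdc, Cpa3, Fcer1a and Cma1, 3 at Ms4a2 and 0 at Mcpt8, and 26.5% of 32851 promoters held at least 1 in the same 250 bases. The RefSeq start of Hdc lies inside the gene, downstream of the GENCODE 5' end used above, so that its 250 bases are not those printed. A motif match is a description of the letters and was not tested as a binding site.

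**Figure D5:**
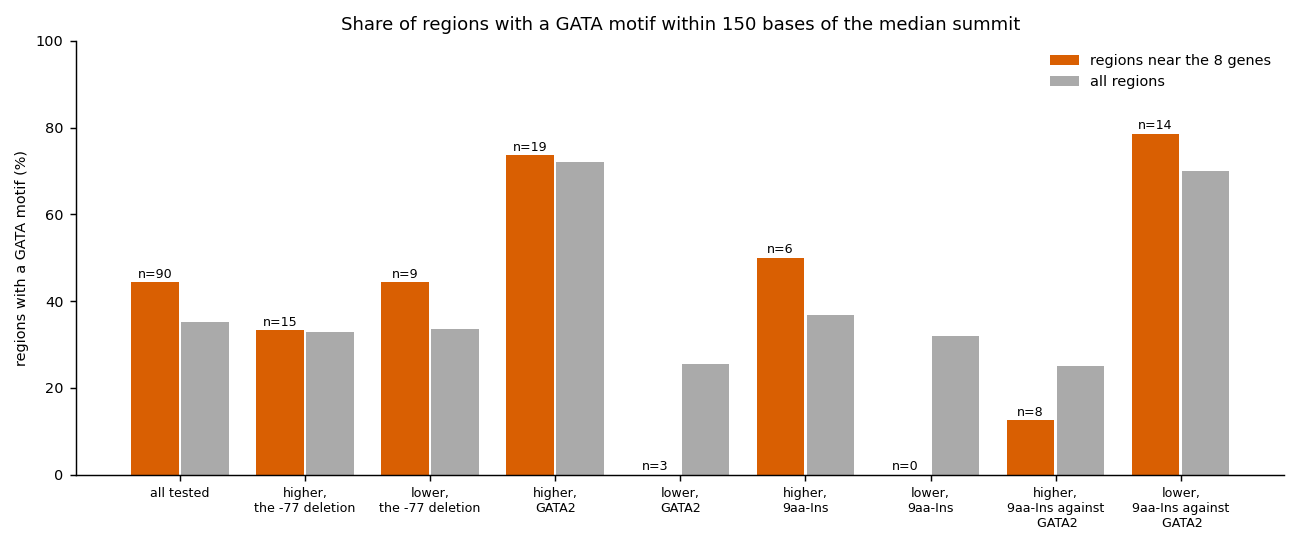
Percent of regions with at least 1 GATA motif in the 300 bases around the summit, for the regions near the 8 genes (orange, number above the bar) and for all regions (gray), by call. Among regions higher with GATA2 both bars stand above 70, at 73.7% and 72.1%, while all tested regions give 44.4% and 35.1%.

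The bars of motif shares for the regions near the 8 genes and for all regions differ most in classes of 8 regions or fewer.

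Other genes of mast cells and basophils were counted from a list of 35, of which 33 were tested for the number of peaks. After the deletion 9 were higher and 4 lower, with GATA2 14 and 0, with 9aa-Ins 1 and 0, and with 9aa-Ins against GATA2 1 and 11. Of all genes tested, 26.2%, 9.94%, 0.595% and 12.1% changed in either direction in the same 4 comparisons. The median log2 difference over the 33 with GATA2 was 0.38. Windows of Mcpt1, Mcpt2, Mcpt4, Mcpt9, Ctsg, Prss34 and Tpsg1 overlap those of Mcpt8, Cma1 or the tryptases and are not independent of them.

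Among cytokines and receptors, Il4 and Il13, the neighboring type 2 cytokine genes, had means of 6.75 and 5.5 peaks in hi-77-/- empty, 15.75 and 14 with GATA2 (limma adjusted p = 0.00288 and 0.00446) and 7.75 and 6.75 with 9aa-Ins. The Il13 start site scored a mean of 55 with GATA2 and at most 2.87 in the other groups. Cd200r3, an activating basophil and mast cell receptor, had 3.75 peaks in hi-77-/- empty, 8.5 with GATA2 and 8.25 with 9aa-Ins (adjusted p = 0.00035 and 0.00382), while its start site had a mean score of 43.6 with GATA2 and 0 in the other 3 groups. The Il13 and Cd200r3 start sites were the 2 called higher with GATA2 among the 22 tested in the list of 35. Of the 22, 1 was lower, beside 6.63% of all regions higher and 9.35% lower. Il3ra, the IL-3 receptor α chain, had 4.5 peaks in hi-77-/- empty, 7.75 with GATA2 and 4.5 with 9aa-Ins (GATA2 adjusted p = 0.0196). Among granule storage and lipid mediator genes, 5 of 8 were higher with GATA2, such as Slc18a2, which loads amines into granules (6.5 peaks, then 9.5, adjusted p = 0.019), and Alox5, the 5-lipoxygenase (6.5, then 10, adjusted p = 0.00936). Hpgds was also among these 5, but its start site scored lower with GATA2 than in hi-77-/- empty (-24.8, limma adjusted p = 0.0228). Of the 7 genes of IgE receptor signalling, Fcer1g, Lyn, Syk, Lat, Lcp2, Plcg2 and Btk, 0 passed the limma threshold with GATA2 (1 at an unadjusted p under 0.05), with a median log2 difference of 0.01.

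By Pearson correlation of rank-weighted peak numbers over the 16 libraries, the gene over 1 Mb away most like each was Bcl2l10 (r = 0.858) for Hdc, Gnl1 (r = 0.944) for Cpa3, Fyb (r = 0.957) for Ms4a2, Selenon (r = 0.976) for Mcpt8, Mrgpra4 (r = 0.919) for Tpsb2, Csf2ra (r = 0.91) for Tpsab1 and Pgm1 (r = 0.813) for Cma1. For Cpa3 the next were Rad50 (r = 0.941) and Myb (r = 0.94), a progenitor transcription factor with means of 7.71 weighted peaks in hi-77-/- empty, 12.9 with GATA2 and 8.84 with 9aa-Ins. For Ms4a2 they were Kcnmb1 (r = 0.953) and Lrig1 (r = 0.952), and for Mcpt8 Gm16867 (r = 0.967) and Mtfr1l (r = 0.963). The 16 points share their groups and list lengths, and each gene was picked as the best of all genes tested, so that these are descriptions.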

How the data were processed

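ATAC-Seq peak lists of 16 libraries were used. Per the labels and the study's methods, the authors trimmed reads with Trim Galore 0.4.1, aligned them to mm10 with Bowtie2 2.2.5, kept unique matches, removed duplicates with Picard 2.26.0, shifted reads for the Tn5 offset and called peaks with MACS2 in each library separately. They name the setting nomodel without naming groups, and a further call without local background for the hi-77-/- libraries. The deposited columns hold a peak score, a fold enrichment ratio, −log10 p and −log10 q; they are no read counts, so the study's count test was not run, depth is unknown and precision rests on the number of libraries.

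From each list the 49000 peaks with the highest −log10 p on chromosomes 1 to 19 and X were taken (ties by fold, then position) and merged across libraries where they overlapped by 1 bp. Each region's best peak was turned into a rank percentile, tied peaks sharing their mean rank. Rank scores, and log2(peaks within 100 kb of the GENCODE 5' end + 1), were fitted with limma 3.58.1 in R 4.3.3 over all 16 libraries, for regions with a peak in at least 2 libraries and genes with a mean of at least 1 peak, with Benjamini-Hochberg adjustment over all features and a threshold of 0.05. Single values were compared with a two-sided exact permutation test, whose smallest p for 4 against 4 is 0.0286. Python 3.11.15 did the rest, and the fits were tested on simulated data.

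The 8 genes, the gene lists and the markers were chosen with earlier results of these data known. Regions named with values were those at each 5' end, the up to 3 called regions with the largest difference per gene and comparison, and the region with the highest mean score per gene, plus 1 region near Mcpt8 chosen after its values were seen; an item withheld for evaluation is not reported here. Same-numbered libraries did not deviate together (24 correlations of -0.0462 to 0.082), so replicate numbers were not used as pairs in the main fit. Alternatives were all deposited peaks, the 24500 top peaks, an equal number per chromosome, peaks narrower than 1 kb or at a −log10 q of at least 5, 50 kb windows, summit overlap, no filter, a replicate block and leaving out each library; a fit with the 8 libraries of the 2 groups was added after seeing the data.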

Additional observations from a re-analysis of the deposited data

Results flagged for a closer look

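In 22 of 142 groups of 4 libraries tested, 1 library stood apart from the other 3 by more than Dixon's 95% critical value; chance gives about 1 group in 20, and groups whose other 3 values tie are flagged by any departure. Among region scores with the others at 0, these were hi-77+/+ empty replicate 2 at 18.6 kb downstream of Hdc and 12.3 kb downstream of Tpsab1 (16 each), hi-77+/+ empty replicate 1 at 76.1 kb upstream of Hdc and 2.3 kb downstream of Cpa3 (3.9 each), hi-77-/- empty replicate 4 at the Hdc 5' end (25.1), 9aa-Ins replicate 3 at 2.3 kb downstream of Cpa3 (3.1), GATA2 replicate 3 at 90.6 kb downstream of Cma1 (17.3), 9aa-Ins replicate 1 at 39.0 kb downstream of Cma1 (38.8), GATA2 replicate 4 at 1.3 kb downstream of Tpsab1 (23.2), hi-77-/- empty replicate 3 and 9aa-Ins replicate 4 at 10.9 kb upstream of Ms4a2 (8.5 and 15) and hi-77-/- empty replicate 1 at 17.2 kb upstream of Ms4a2 (14.3).

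Among scores with the others above 0, hi-77-/- empty replicate 1 scored 32.4 at 16.8 kb upstream of Hdc (others 54.3 to 57.9), GATA2 replicate 1 scored 8.5 at 76.1 kb upstream of Hdc (others 46.3 to 49.8), and 9aa-Ins replicate 1 scored 61 at the Mcpt8 5' end (others 77.3 to 80) and 69.7 at 17.2 kb upstream of Ms4a2 (others 76.8 to 78.1). For the number of peaks within 100 kb, GATA2 replicate 2 had 16 near Hdc (others 14), hi-77+/+ empty replicate 1 had 5 near Cpa3 (others 3), hi-77-/- empty replicate 1 had 4 near Cpa3 (others 5), 9aa-Ins replicate 4 had 11 near Ms4a2 (others 9), hi-77+/+ empty replicate 2 had 4 near Mcpt8 (others 3) and 9aa-Ins replicate 2 had 7 near Mcpt8 (others 6).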

How the results depend on the processing

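Of the 73 named differences past the threshold, 54 kept their call in every fit without 1 library, and 45 with all deposited peaks, 51 with only the 8 libraries of the 2 groups (chosen after seeing the data) and 71 with an equal number of peaks per chromosome. The fewest were kept with the 24500 top peaks, where 31 kept their call, 25 lost it and the others had no region to test. With all deposited peaks, regions higher after the deletion fell to 9 and regions lower with GATA2 to 1, regions higher with 9aa-Ins came to 11 and higher against GATA2 to 16, where the shares of all regions were 5.7%, 5.48%, 7.63% and 19%, and changed genes to 0 with GATA2, 1 with 9aa-Ins and 0 against GATA2. With the 24500 top peaks, regions higher with GATA2 and regions lower with 9aa-Ins than with GATA2 each came to 8. Of all 36172 regions tested in that setting 7.35% and 7.43% were called, and the number tested near the 8 genes is not given here. With the same peaks, changed genes came to 4 for the deletion and 0 for GATA2. Regions with scores under 50 have no peak there by construction; for the other changes the cause was not tested.

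Counting peaks in 4 of 4 against 0 of 4 gave 4 higher and 2 lower for the deletion, 9 and 0 for GATA2, and 0 and 6 for 9aa-Ins against GATA2. Changed genes for the deletion came to 0 with an equal number per chromosome and with narrow peaks and 3 with rank weights; for GATA2 to 5 with 50 kb windows and with rank weights, and 0 with −log10 q of at least 5 and with 8 libraries; for 9aa-Ins against GATA2 to 0 with −log10 q of at least 5, 4 with rank weights and 1 with narrow peaks, no filter, regions, 8 libraries or the permutation test. Regions lower with 9aa-Ins came to 1 with narrow peaks and with 8 libraries. With narrow peaks, broad peaks leave the lists, and the difference reversed at 87.0 kb downstream of Cpa3 after the deletion (3.87) and at 20.3 kb upstream of Mcpt8 with 9aa-Ins (-85.0) and against GATA2 (-75.8). With all deposited peaks it reversed at 2.3 kb downstream of Cpa3 for 9aa-Ins against GATA2 (0.51) and for the log2 number of peaks near Mcpt8 after the deletion (-0.13).

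Without 1 library, counts ranged, for the deletion, from 14 to 17 regions higher, 6 to 10 lower and 1 to 2 genes; for GATA2 from 12 (without hi-77-/- empty replicate 3 or 4) to 22 higher, 2 to 6 lower (6 without hi-77+/+ empty replicate 2) and 3 to 6 genes; for 9aa-Ins from 5 to 7 higher, 0 to 1 lower and 0 genes; and for 9aa-Ins against GATA2 from 6 to 9 higher, 11 to 18 lower and 1 to 3 genes. With the replicate number as a block, 68 of the 73 calls held, and changed genes for 9aa-Ins against GATA2 came to 1; the numbers do not pair the libraries. Read counts were not used here, so a region under the rank limit of a list is not detected, not closed.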
